A study of Mus musculus with 4 samples.

Results

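Genes of the cell division cycle were followed in the left ventricular free wall of mice with and without a fluorescent voltage indicator. The set held 35 genes picked by symbol for their known roles in DNA replication and mitosis, out of 38355 genes in the count table. All 35 had a row in the table. Of these, 32 had enough reads to be tested and Aurkb, Plk1 and Ccnb1 did not.

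RNA from 4 untreated mice with the same parents gave 1 library each. The 2 transgenic mice (TG) carried VSFP2.3, a protein whose fluorescence follows membrane voltage, and the 2 wild-type mice (WT) did not. WT 1 and TG 1 were males aged 35 weeks, and WT 2 and TG 2 were females aged 19 weeks, so sex and age were a single difference. The study asked whether the transgene harms the heart, and its title places the indicator in cardiomyocytes, but the sources used here do not give the promoter or the mouse strain. The transgene's own RNA was not analysed here and gives no check of the genotype labels. The TG and WT mouse of the same sex and age are called a pair. In what follows, 4 values in a row are always those of WT 1, WT 2, TG 1 and TG 2.

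A dividing cell first loads the MCM helicase on its DNA and copies it, and then condenses the chromosomes and pulls them apart on a spindle. Cyclin-dependent kinases drive both steps, and the anaphase promoting complex ends mitosis by marking cyclins and other proteins for destruction. Heart muscle cells of adult mice rarely divide, whereas endothelial cells, fibroblasts and blood-derived cells of the same tissue can. In a bulk library, fewer dividing cells and less RNA per cell cannot be told apart.

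Many of these genes share short promoter motifs, so the 250 bases before the start were read for 3 of them, on both strands. RefSeq (GRCm38.p6) gave 33 promoters for 30 of the 35 genes. The CCAAT box (CCAAT), bound by the factor NF-Y, was in 28 of the 33, or 84.8%, against 33.8% of all 32851 RefSeq promoters in the same window. The CHR element (TTTGAA), through which the DREAM and MuvB complexes act on mitotic genes, was in 10 of 24 promoters of mitotic genes (41.7%) and in 1 of 9 of replication genes (11.1%), against 16.0% of all promoters. E2F sites, searched as TTGGCGC and as the forms TTCCCGC, then also as TTGCCGC, and lastly as TTCGCGC, were in 4 of the 24 (16.7%) and in 5 of the 9 (55.6%), against 7.89% of all. These letters are a description of the sequence and say nothing of binding in these hearts.

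**Figure D1:**
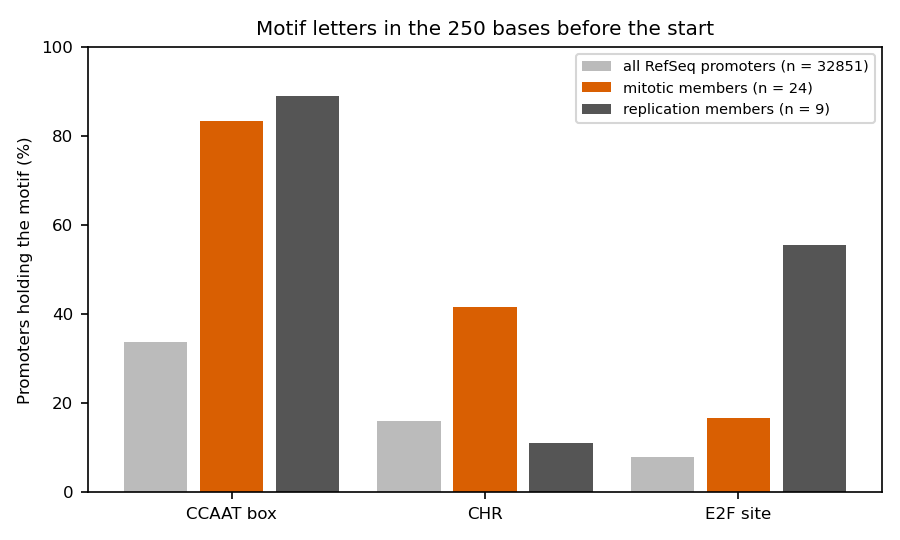
Share of promoters (%, vertical axis) with each motif in the 250 bases before the start, for all RefSeq promoters, 24 promoters of mitotic genes and 9 of replication genes. The CCAAT bar is above 80% in both gene groups, the CHR bar is taller for mitotic genes (41.7%) and the E2F bar for replication genes (55.6%).

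The 6 sequences below show both kinds of promoter, for genes whose values carry the results: Mki67, Top2a, Cdk1 and Cenpf for mitosis, Mcm5 and Mcm6 for replication. Capitals mark the CCAAT box (ATTGG on the other strand), the CHR (TTCAAA on the other strand) and E2F sites, which run into each other where they overlap. Mki67 held 2 CHR elements, the first bases of which lay 116 and 98 bases before the start. Cenpf held CCAAT boxes and neither other motif. Mcm6 held 4 E2F sites in 2 overlapping pairs. The stretches are chr7:135716380-135716629 (minus strand) for Mki67, chr11:99024190-99024439 (minus) for Top2a, chr10:69352913-69353162 (minus) for Cdk1, chr1:189688087-189688336 (minus) for Cenpf, chr8:75109259-75109508 (plus) for Mcm5 and chr1:128359706-128359955 (minus) for Mcm6.
Mki67: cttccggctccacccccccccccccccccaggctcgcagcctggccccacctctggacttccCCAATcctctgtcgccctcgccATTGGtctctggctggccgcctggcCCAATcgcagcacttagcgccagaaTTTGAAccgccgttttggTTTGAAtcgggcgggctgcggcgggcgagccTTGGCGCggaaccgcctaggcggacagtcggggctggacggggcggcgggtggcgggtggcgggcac
Top2a: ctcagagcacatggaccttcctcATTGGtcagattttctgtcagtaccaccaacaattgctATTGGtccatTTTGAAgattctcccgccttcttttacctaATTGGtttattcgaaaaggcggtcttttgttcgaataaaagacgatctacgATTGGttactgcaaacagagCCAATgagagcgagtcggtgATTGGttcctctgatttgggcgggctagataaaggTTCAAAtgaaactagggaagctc
Cdk1: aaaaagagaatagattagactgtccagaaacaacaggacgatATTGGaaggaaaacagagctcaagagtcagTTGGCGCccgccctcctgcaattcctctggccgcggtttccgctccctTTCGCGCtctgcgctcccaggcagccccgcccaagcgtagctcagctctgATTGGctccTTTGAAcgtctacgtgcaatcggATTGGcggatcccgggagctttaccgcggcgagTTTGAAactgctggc
Cenpf: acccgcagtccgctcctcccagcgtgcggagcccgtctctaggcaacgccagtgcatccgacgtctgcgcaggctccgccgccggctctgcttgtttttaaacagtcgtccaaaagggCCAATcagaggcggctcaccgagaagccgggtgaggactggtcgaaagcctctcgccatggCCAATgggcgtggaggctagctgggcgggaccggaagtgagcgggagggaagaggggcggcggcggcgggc
Mcm5: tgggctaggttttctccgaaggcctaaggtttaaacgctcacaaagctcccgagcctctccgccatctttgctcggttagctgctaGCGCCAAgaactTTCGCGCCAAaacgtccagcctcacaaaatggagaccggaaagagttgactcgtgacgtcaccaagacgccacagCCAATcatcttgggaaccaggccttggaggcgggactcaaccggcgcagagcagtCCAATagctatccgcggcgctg
Mcm6: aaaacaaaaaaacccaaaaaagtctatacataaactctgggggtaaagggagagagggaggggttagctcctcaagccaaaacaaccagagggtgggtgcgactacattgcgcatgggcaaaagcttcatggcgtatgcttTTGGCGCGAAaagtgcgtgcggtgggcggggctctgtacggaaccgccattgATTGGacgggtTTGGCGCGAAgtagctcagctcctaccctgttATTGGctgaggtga

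Gene totals were 14158440 to 16762713 counts per library, and 18334 to 19001 genes had at least 1 count. Levels are CPM, the count scaled to a library size of 1000000 after scaling by trimmed means. The limit that a count of 0 allows, 3 counts, stood for 0.182 to 0.213 CPM. Such limits and the intervals below cover counting error only. WT 2 stood apart in make-up, with 89.9% of counts in protein-coding genes against 96.7 to 97.4% in the other libraries. Y-linked and Xist counts matched the labelled sex of all 4 mice. All 8 cardiomyocyte markers examined, Myh6 and Tnnt2 among them, were detected in every library.

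Per kilobase of exon, the most abundant of the 35 genes was Cenpf, at a mean of 5.54 CPM per kb over the 4 libraries. Pcna followed at 3.65, Mcm4 at 3.44, Mcm6 at 2.88 and Mcm3 at 2.48 CPM per kb. Mki67 was at 1.55 and Top2a at 1.06, while Ccnb1 was lowest at 0.0907 CPM per kb. Replication genes held 7 of the 10 highest places on this scale. Pcna shares 99.2% of an aligned stretch with its pseudogene Pcna-ps2, which had 112 to 167 counts of its own, so its level is uncertain. The same holds for Ccnb1, Cdc20, Mcm7, Plk1, Tyms, Rrm2, Ube2c, Cenpe and Prc1, each of which has a processed pseudogene alike in at least 90% of an aligned stretch of 400 bases or more.

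**Figure D2:**
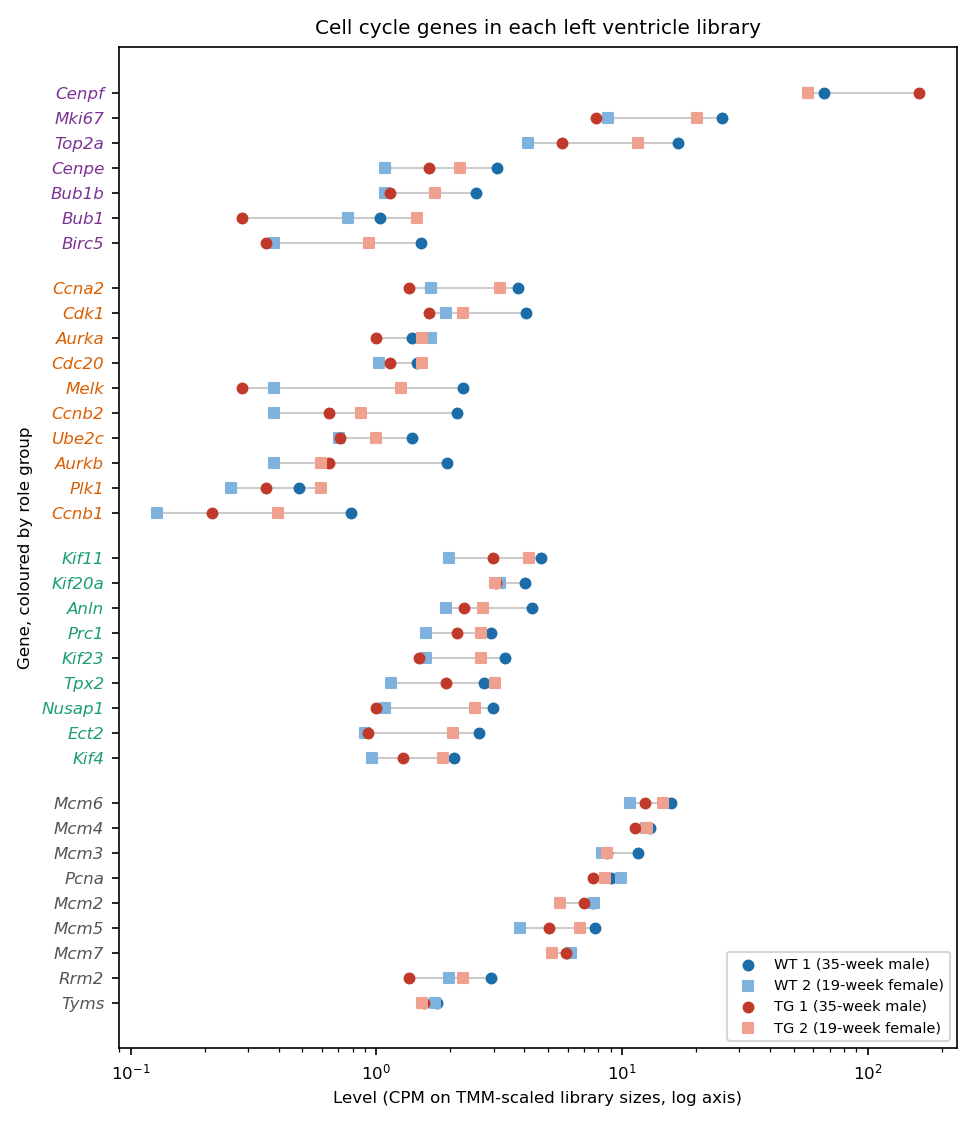
Level of each of the 35 genes in the 4 libraries (CPM on a log axis), grouped and coloured by role, with a grey line from the lowest to the highest library. In most mitotic genes the WT 1 and TG 2 points lie to the right of WT 2 and TG 1, in Cenpf the TG 1 point stands alone at 162 CPM, and the replication genes at the bottom spread least.

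The comparison the study was made for, TG against WT, gave no call among these genes. With edgeR's quasi-likelihood F statistic and Benjamini-Hochberg adjustment, 0 of the 32 tested genes passed an adjusted p of 0.05, against 0 of 14189 genes overall (0.0%), and 0 of the 32 had an unadjusted p under 0.05 (0.698% of all genes did). DESeq2 and limma-voom also called 0 of the 32. Fold changes (log2, TG over WT) ran from -0.76 to 0.82, with a median of -0.23 against -0.01 for all genes, and 24 of 32 were negative, where 52.5% of all genes were. Leaving out WT 1 turned the median to 0.39 with 8 of 32 negative, and leaving out TG 1 brought it to -0.007 with 17 negative. Mki67, the proliferation antigen that coats mitotic chromosomes, averaged 17.2 ± 11.9 CPM in the WT mice and 13.97 ± 8.70 CPM in the TG mice (SD, n = 2), and its log2 fold change was -0.30 ± 0.66 (SE). Top2a, the topoisomerase that untangles replicated DNA, averaged 10.5 ± 8.97 CPM in the WT mice and 8.66 ± 4.19 CPM in the TG mice (SD, n = 2), and its log2 fold change was -0.28 ± 0.72 (SE). For both, the SD within a genotype was larger than the difference between the genotypes. Leaving out WT 1 turned the log2 fold change of Mki67 to 0.67 and that of Top2a to 1.06, and leaving out TG 1 turned them to 0.23 and 0.15, so no direction is read from them.

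Within genotypes the mitotic genes differed widely, and in opposite ways in the 2 pairs. In the male pair, 31 of the 32 genes were lower in TG 1 than in WT 1. In the female pair, 25 of 32 were higher in TG 2 than in WT 2. A 95% counting interval of the TG to WT ratio lay below 1 for 19 genes in the male pair (22.1% of all tested genes) and above 1 for 1, Cenpf (23.6% of all). It lay above 1 for 12 genes in the female pair (20.4% of all) and below 1 for 1, Mcm2 (20.6% of all). In 25 of the 32 genes, or 78.1%, both WT 1 and TG 2 were above both WT 2 and TG 1, an order that 24.6% of all tested genes had; 0 of the 32 had the reverse order, against 22.9% of all. On library totals without scaling, every log2 ratio shifts by -0.17 in the male and 0.19 in the female pair, which leaves 31 genes below 1 in the male pair and raises the count above 1 in the female pair to 29, with Aurka, Cenpf, Kif20a and Tyms turning sign.

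**Figure D3:**
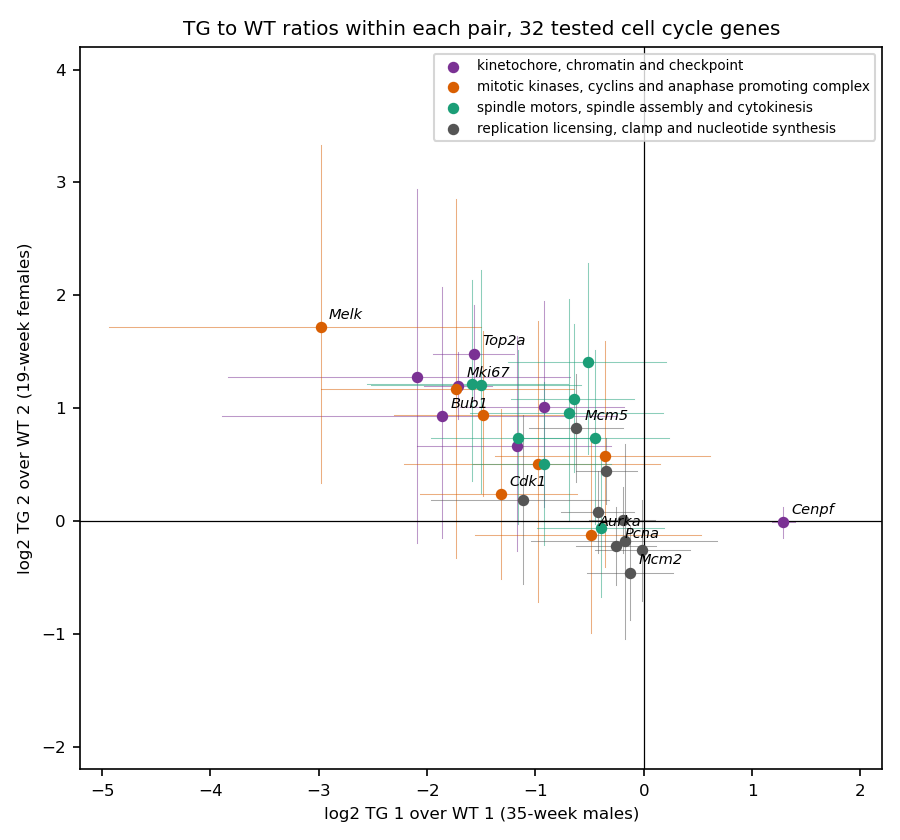
Log2 TG to WT ratio of each tested gene in the male pair (horizontal) and in the female pair (vertical), with 95% counting intervals as thin lines and colours by role. Most mitotic genes lie in the upper left, Cenpf lies far right at a female ratio of 0.992, and most replication genes lie near the origin.

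When the ratios of the pairs were set against each other, Mki67 and Top2a were called. The comparison was chosen with earlier results of these data known, so its calls describe these libraries and are not an independent test. The difference of the males' log2 ratio of TG to WT from that of the females was fitted as the single term of an edgeR model. It equals 2 times the log2 fold by which the mean of WT 2 with TG 1 exceeds that of WT 1 with TG 2. As it rests on these group means, it departs from a plain subtraction of the log2 ratios where the libraries of a group differ. EdgeR with Benjamini-Hochberg adjustment passed 2 of 32 genes, against 386 of 14189, or 2.72%, and both were negative (2.37% of all genes were called negative). An unadjusted p under 0.05 was found for 16 of the 32, all negative, against 16.2% of all genes in either direction and 8.77% negative. The median difference of the 32 genes was -1.57 against 0.01 for all genes, and 28 were negative, where 49.1% of all genes were. Without WT 2 the median was -1.25, and without WT 1 it was -1.12. Each group of this fit joins 2 mice that differ in genotype, sex and age. The p-values therefore do not measure the spread among mice of the same condition.

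Chromosome, kinetochore and checkpoint genes held both calls. Mki67 was at 25.6, 8.76, 7.82 and 20.1 CPM, from 421, 137, 110 and 303 counts. Its TG to WT ratio was 0.306 in the males (95% interval 0.246 to 0.378) and 2.296 in the females (1.87 to 2.83). WT 1 and TG 2 were thus the high libraries, with no overlap with WT 2 and TG 1. The difference of the log2 ratios was -2.92 ± 0.37 (SE), with an adjusted p of 0.0208 by edgeR. Mki67, ENSMUSG00000031004, lies on the minus strand of chromosome 7 from 135689784 to 135716361 (GRCm38).

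Top2a was at 16.8, 4.16, 5.69 and 11.6 CPM, from 277, 65, 80 and 175 counts. The high and low libraries were those of Mki67. Its ratio was 0.338 (0.2601 to 0.435) in the males and 2.80 (2.09 to 3.78) in the females. The difference was -3.07 ± 0.53 (SE), with an adjusted p of 0.0456 by edgeR. Top2a, ENSMUSG00000020914, lies on the minus strand of chromosome 11 from 98992943 to 99024189. Both calls depended on single libraries. Mki67 had an adjusted p by edgeR of 0.157 when WT 1 was left out and 0.0615 when TG 2 was, and it stayed under 0.05 without WT 2 (0.0390) or TG 1 (0.0454). Top2a missed the threshold when any 1 library was left out, with adjusted p by edgeR of 0.298 (WT 1), 0.0956 (WT 2), 0.0523 (TG 1) and 0.0913 (TG 2). Limma-voom gave Top2a an adjusted p of 0.0615.

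Each of 4 lists of leukocyte markers was higher in WT 1 and TG 2 than in the other libraries, as Mki67 and Top2a were. Without Cenpf, the mitotic genes summed to 100.02, 39.1, 42.0 and 76.0 CPM. The summed level of 15 macrophage and monocyte markers was 1092, 383.2, 380.4 and 847.1 CPM. Of the 15, 9 were called in the difference of the pairs, where 386 of 14189 genes (2.72%) were called in all. That comparison was chosen with earlier results of these data known. The sum of 10 T and NK lymphocyte markers was 47.9, 9.98, 5.48 and 47.3 CPM, with 8 of 10 called and Cd8a at 0 counts in TG 1. The sum of 7 B lymphocyte and plasma cell markers was 89.9, 7.16, 9.74 and 382.0 CPM, with 3 of 4 tested called. Neutrophil markers, 8 in all, were near 0 and summed to 2.19, 0.896, 0.213 and 1.79 CPM, with Mpo and Camp at 0 in all 4 libraries. The 1 tested, S100a9, had 17, 3, 1 and 12 counts and was not called. The pan-leukocyte gene Ptprc had 1207, 182, 134 and 908 counts, and its difference was -5.31 ± 0.34 (SE; adjusted p 0.00575 by edgeR), larger in size than that of Mki67. Mki67 stood at 0.349, 0.753, 0.821 and 0.334 counts per count of Ptprc, so it was spread less than Ptprc. The part of these cells in the values of the mitotic genes was not tested.

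The lists of erythroid cells and of the heart's resident cell types did not have WT 1 and TG 2 as their high libraries. Endothelial markers, 8 in all, summed to 1283, 1561, 1405 and 1433 CPM, and 7 fibroblast markers to 1698, 1857, 1775 and 1736 CPM, with 0 called in each. Smooth muscle and pericyte markers, 7 in all, summed to 1502, 997.1, 1614 and 1582 CPM, with 0 called. Cardiomyocyte markers, 8 in all, summed to 112114, 157940, 187943 and 117460 CPM, a sum lower in WT 1 and TG 2, with 0 called. Ttn alone gave 61652, 96929, 118161 and 63260 CPM of this sum. WT 1 and TG 2 were both below the other libraries in 5 of the 8 markers, an order that 22.9% of all tested genes had. Myl2 was near level at 7738, 7948, 7672 and 7835 CPM. Erythroid markers were highest in WT 1, at 718.4, 182.8, 235.4 and 142.2 CPM, with 0 of 4 tested called.

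**Figure D4:**
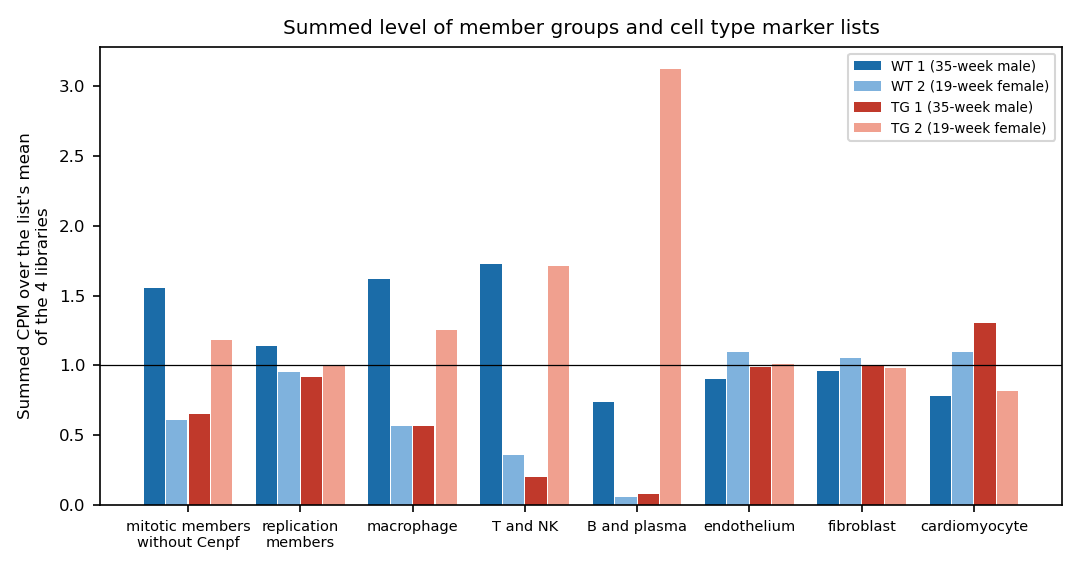
Summed CPM of 2 groups of cell cycle genes and of cell type marker lists in each library, divided by the mean of the list over the 4 libraries (vertical axis, from 0). The bars of the mitotic genes without Cenpf, macrophage markers and lymphocyte markers are high in WT 1 and TG 2, and those of endothelium and fibroblasts lie close to 1 in all libraries.

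Cenpf had another pattern. It encodes a large microtubule-binding protein of the mitotic kinetochore, which in mouse is also known from heart muscle cells. It was at 66.2, 57.4, 162 and 56.9 CPM, from 1089, 897, 2273 and 857 counts. TG 1 alone was high, and the other libraries lay between 56.9 and 66.2 CPM. The TG to WT ratio was 2.44 (2.27 to 2.63) in the males and 0.992 (0.902 to 1.09) in the females, so counting error was small beside the gap in the male pair. No comparison called it. The fitted log2 difference of the pairs was 1.66 ± 0.89 (SE, adjusted p 0.438 by edgeR), more than a subtraction of its log2 ratios, 1.29 and -0.01, gives. TG over WT was 0.82 ± 0.50 (adjusted p 0.9999 by edgeR) and males over females 0.99 ± 0.43 (adjusted p 0.999 by edgeR). Without WT 2 the difference of the pairs was 2.78 with an adjusted p of 0.0222 by edgeR, and without TG 1 it was -0.20. Cenpf took 27.4, 36.0, 61.1 and 28.6% of the summed CPM of the 35 genes (241.7, 159.5, 264.5 and 198.8 CPM), and the sum was therefore highest in TG 1. Against Ttn, the giant sarcomere protein whose CPM was also highest in TG 1, Cenpf stood at 0.00107, 0.000592, 0.00137 and 0.000900 counts per count. Cenpf, ENSMUSG00000026605, lies on the minus strand of chromosome 1 from 189640606 to 189688086.

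Cenpe, a kinetochore motor, the checkpoint kinases Bub1 and Bub1b, and Birc5 (survivin), a subunit of the chromosomal passenger complex, had mean levels of 0.797 to 2.00 CPM. All 4 were below 1 in the male pair by their counting intervals, with ratios of 0.234 to 0.528. In the female pair their ratios were 1.59 to 2.42. There the interval of Cenpe lay above 1 (1.09 to 3.86), and those of Bub1, Bub1b and Birc5 included 1. Their log2 differences ran from -3.42 for Birc5 to -1.89 for Bub1b, and 0 of the 4 passed the adjusted threshold. Leaving Cenpf aside, the summed level of the kinetochore, chromatin and checkpoint genes was 50.6, 16.2, 16.9 and 38.1 CPM.

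The tested mitotic kinases and cyclins lay on the same side of 0 without a call, as did Cdc20 and Ube2c. The summed level of this group of 10 genes was 19.7, 8.51, 7.97 and 13.2 CPM. The median log2 difference of the 7 tested genes was -1.67, all 7 were negative, and 0 passed the adjusted threshold. Cdk1, the kinase that starts mitosis, was at 4.07, 1.92, 1.64 and 2.26 CPM. WT 1 stood above the rest and TG 2 was close to WT 2, with ratios of 0.402 (0.239 to 0.653) in the males and 1.18 (0.699 to 1.99) in the females. Its difference was -1.67 ± 0.74 (SE; adjusted p 0.351 by edgeR).

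Ccna2, cyclin A2, which serves S phase and mitosis, was at 3.77, 1.66, 1.35 and 3.19 CPM. Its difference was -2.40 ± 0.57 (SE; adjusted p 0.109 by edgeR). It overlaps Exosc9 on the opposite strand over 12.5% of its exons, and the strand setting of the counting was not given. Melk, a kinase of dividing and progenitor cells, was at 2.25, 0.384, 0.285 and 1.26 CPM, from 37, 6, 4 and 19 counts. It had the most negative difference of the 32, -4.73 ± 1.01 (SE; adjusted p 0.0809 by edgeR) in a gene with at most 37 counts. Ccnb2, a B-type cyclin, was at 2.13, 0.384, 0.640 and 0.863 CPM, with WT 1 well above the other libraries and a difference of -3.11 ± 1.18 (SE; adjusted p 0.274 by edgeR).

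Aurka, the centrosomal Aurora kinase, did not share the order of the others. It was at 1.40, 1.66, 0.996 and 1.53 CPM, with a difference of -0.25 ± 0.75 (SE; adjusted p 0.912 by edgeR). Both females were above both males, an order that 15.9% of all tested genes had. Cdc20, the activator of the anaphase promoting complex, and Ube2c, its ubiquitin-conjugating enzyme, had ratios of 0.780 and 0.509 in the males and 1.49 and 1.42 in the females, and all 4 intervals included 1. The 3 untested genes of this group had 6 to 32 counts for Aurkb, 4 to 9 for Plk1 and 2 to 13 for Ccnb1. Their male ratios were 0.329, 0.731 and 0.270 and their female ratios 1.56, 2.34 and 3.11, in that order. The female intervals of all 3 included 1, as did the male interval of Plk1. In Aurkb, TG 2 (0.598 CPM) was below TG 1 (0.640 CPM).

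Spindle motors and cytokinesis genes had WT 1 and TG 2 on top in 8 of 9 cases, an order that 24.6% of all tested genes had. Their summed level was 29.7, 14.4, 17.1 and 24.8 CPM, and the median difference was -1.68 with 0 of 9 past the adjusted threshold. Kif11, the motor that pushes the spindle poles apart, was at 4.68, 1.98, 2.99 and 4.18 CPM, a difference of -1.68 ± 0.58 (SE; adjusted p 0.234 by edgeR). Nusap1, which bundles spindle microtubules, was at 2.98, 1.09, 0.996 and 2.52 CPM, a difference of -2.79 ± 0.61 (SE; adjusted p 0.0867 by edgeR). Anln, the anillin scaffold of the contractile ring, was at 4.32, 1.92, 2.28 and 2.72 CPM, with WT 1 above the other libraries and a difference of -1.50 ± 0.65 (SE; adjusted p 0.338 by edgeR).

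Kif20a, a motor of the midzone, was the exception. It was at 4.01, 3.20, 3.06 and 3.05 CPM, a difference of -0.35 ± 0.52 (SE; adjusted p 0.799 by edgeR). It overlaps Cdc23, with 606 to 794 counts, on the opposite strand over 29.3% of its exons, so part of its reads may belong to that gene. Kif23, Kif4, Tpx2, Prc1 and Ect2, which act in the spindle midzone, spindle assembly and the signal for the contractile ring, had mean levels of 1.54 to 2.33 CPM and differences from -2.71 for Ect2 to -1.16 for Prc1. Of these, Kif4 and Prc1 overlap other genes on the opposite strand over 15.1% and 11.1% of their exons.

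**Figure D5:**
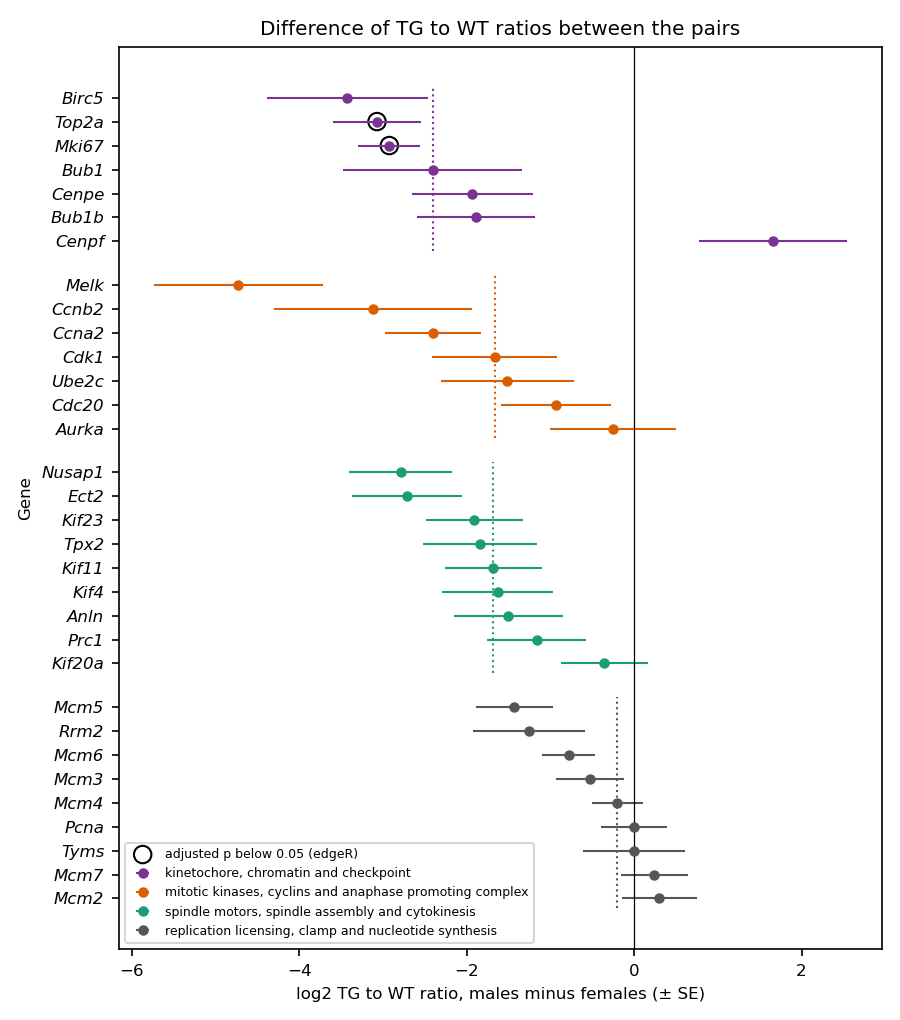
Fitted difference of log2 TG to WT ratios, males minus females, for the 32 tested genes by role (points, with SE as bars and the group median as a dotted line). Circles mark Mki67 and Top2a, the 2 genes with an adjusted p below 0.05, and the replication genes lie nearest to 0 with a median of -0.20.

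Replication genes lay closer to level. Their summed level was 75.5, 62.9, 60.9 and 65.8 CPM, the median difference was -0.20, 6 of 9 were negative and 0 passed the adjusted threshold. The order with WT 1 and TG 2 on top was found in 5 of the 9, against 20 of the 23 tested mitotic genes and 24.6% of all tested genes. In the remaining replication genes, Mcm2, Mcm7, Pcna and Tyms, both WT libraries were above both TG libraries. The mitotic gene Kif20a had this order too, so 5 of the 32 genes (15.6%) had it, against 10.7% of all tested genes. In 0 of the 32 genes were both TG libraries above both WT libraries (10.3% of all). Mcm2, Mcm7, Pcna and Tyms were not called. Their log2 fold changes of TG over WT were -0.28 ± 0.23, -0.13 ± 0.23, -0.24 ± 0.20 and -0.17 ± 0.36 (SE), in that order.

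The MCM2 to MCM7 proteins form the ring of the replicative helicase. Mcm5 was at 7.78, 3.84, 5.05 and 6.77 CPM, and Mcm6 at 15.8, 10.8, 12.5 and 14.7 CPM. Mcm5 had the most negative difference of the group, -1.43 ± 0.46 (SE; adjusted p 0.207 by edgeR), and Mcm6 was at -0.78 ± 0.32 (SE; adjusted p 0.308). Mcm3 was at 11.6, 8.25, 8.68 and 8.70 CPM, with WT 1 above the other libraries, and Mcm4 at 12.95, 12.5, 11.3 and 12.6 CPM. Mcm2 was at 7.60, 7.68, 6.97 and 5.58 CPM, and Mcm7 at 5.96, 6.21, 5.90 and 5.18 CPM. The 6 subunits of the ring thus did not share an order of libraries, and their differences ran from -1.43 to 0.30.

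Pcna, the sliding clamp of DNA polymerases, was at 9.06, 9.92, 7.61 and 8.50 CPM, a difference of -0.00 ± 0.40 (SE; adjusted p 0.999 by edgeR). Rrm2, the ribonucleotide reductase subunit that limits nucleotide supply, was at 2.92, 1.98, 1.35 and 2.26 CPM, a difference of -1.26 ± 0.67 (SE; adjusted p 0.436 by edgeR). Tyms, thymidylate synthase, ranged from 1.53 to 1.76 CPM. Rrm2 had the order of libraries seen in most mitotic genes, and Pcna and Tyms did not.

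The males and the females, who differed in age as well, were not told apart by any of these genes. EdgeR with Benjamini-Hochberg adjustment called 0 of the 32 (4 of all 14189 genes, 0.0282%), and 0 had an unadjusted p under 0.05 (3.62% of all). DESeq2 and limma-voom called 0 of the 32 as well. The log2 ratio of males over females had a median of 0.23, against 0.01 for all genes, and 28 of 32 were positive, where 51.9% of all were. Cenpf was the 1 gene with both males above both females, an order of 15.5% of all tested genes. Ccnb2 was at 1.16 ± 0.77, Mcm3 at 0.26 ± 0.21, Anln at 0.51 ± 0.44 and Aurka at -0.41 ± 0.38 (log2, SE). Leaving out WT 1 turned the median of the 32 to -0.16.

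Among 124 other genes of the cycle, 107 were tested, and edgeR with Benjamini-Hochberg adjustment called 0 of them in each of the 3 comparisons. Unadjusted p-values under 0.05 numbered 0 for TG against WT (0.698% of all genes), 3 for males against females (3.62% of all genes) and 23 for the difference of the pairs (16.2% of all genes), 20 of the latter negative (8.77% of all genes). DESeq2 called 0, 1 (Cdkn1a) and 1 (Ccnd2) in that order, and limma-voom 0 in each. The fit without a filter called Ccnd2 and Kif15 in the difference of the pairs, and the replicate block beside the difference called Ccnd2, Anapc2 and Cep55. The median difference of the 107 genes was -0.44. Of the 38 tested G2 and mitosis genes, 31 were negative (49.1% of all genes were) with a median of -1.34, and 16 had an unadjusted p under 0.05. Of the 26 tested S phase and replication genes, 20 were negative with a median of -0.56, and 1 had an unadjusted p under 0.05. As the 2 genes of highest CPM in the mitosis list, the centromeric histone Cenpa was at 33.3, 36.2, 35.1 and 26.4 CPM and the checkpoint protein Bub3 at 30.6, 27.4, 29.4 and 31.7 CPM. In the replication list, Gmnn (geminin, which blocks relicensing) was at 35.4, 26.4, 32.8 and 34.2 CPM, and Rrm1, the partner of Rrm2, at 22.3, 18.9, 21.8 and 24.5 CPM.

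On 4 lists of regulators of the cycle, the median differences lay between -0.66 and 0.35. The D-type cyclin Ccnd2, which opens G1, was at 96.2, 194.9, 185.1 and 127.8 CPM, a difference of 1.53 ± 0.32 (SE; adjusted p 0.0767 by edgeR), so its libraries stood in the reverse order of Mki67. Ccnd1 was at 78.7, 89.0, 80.7 and 63.3 CPM. Among 19 tested inhibitors of the kinases, RB family members and DREAM or MuvB subunits, the median difference was -0.06, with Tfdp2 at 132.3, 133.2, 144.8 and 159.6 CPM and Rbbp4 at 82.2, 68.1, 74.6 and 78.2 CPM. The 6 E2F genes had a median of -0.66 and the 13 genes of the anaphase promoting complex and its adaptor one of -0.07. E2f6, a repressor, was at 94.3, 104.9, 105.2 and 96.3 CPM, and E2f3, an activator, at 16.5, 16.1, 16.4 and 19.5 CPM. Anapc5 was at 169.8, 170.6, 155.9 and 159.2 CPM and Anapc1 at 107.1, 128.0, 133.7 and 119.3 CPM.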

How the data were processed

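The authors deposited raw read counts per gene and a normalized signal, which is the same counts divided by 1 factor per library. Per the labels' protocols, RNA was made into stranded total RNA libraries and sequenced on a HiSeq2000. Per the submitters' processing notes, the tools named are CASAVA 1.8.2 and FastQC 0.10.0, along with STAR 2.3.0, HTSeq 0.6.1, DESeq and build mm10. Which annotation and strand setting the counting used is not given in the sources used here. Counts were analysed with edgeR 4.0.16 in R 4.3.3: filterByExpr (minimum count 10, 14189 genes kept), TMM scaling, and quasi-likelihood tests with Benjamini-Hochberg adjustment over all genes tested and a threshold of 0.05. Each of 3 comparisons was fitted alone, which leaves 2 residual degrees of freedom. With both factors in the model none would be left for their interaction. DESeq2 1.42.0, limma-voom (limma 3.58.1), other filters and scalings and fits without each library were alternatives. Pair ratios carry exact 95% binomial intervals of the counts. Positions, exon lengths, overlaps and copies came from GENCODE vM21. The fits were tested on simulated data. Members, lists and the test of the pair difference were chosen with earlier results of these data known. Members named with values in every library were those called in any of the 3 comparisons, the 12 of highest mean CPM, the 5 of smallest p per fit, and Mki67, Top2a, Cenpf and Cdk1; of other cycle genes, the 2 of highest CPM per list, and, chosen after their values were seen, those called under an alternative.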

Additional observations from a re-analysis of the deposited data

Results flagged for a closer look

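The TG to WT ratio of Mki67 was not alike in the 2 pairs, males and females, with a log2 difference of -2.92 (adjusted p 0.0208 by edgeR), lower in TG in the males and higher in TG in the females. That of Top2a differed by -3.07 (adjusted p 0.0456 by edgeR) in the same directions. Each pair was 1 mouse of each genotype, and sex and age differ together between the pairs. The comparison itself was chosen with earlier results of these data known. Leukocyte markers moved with both genes, and their part in the difference was not tested.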

How the results depend on the processing

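For TG against WT, 0 of the 35 genes were called under every alternative run. Over all genes, DESeq2 called 3 and the fits without 1 library 0 to 6. The replicate numbers match mice by sex and age, yet same-numbered libraries did not deviate alike. Their deviations from the group means had a correlation of -0.449. With the replicate number as a block, 0 genes were called and 61 had an unadjusted p below 0.05, against 99 without it. The crossed pairing, added after seeing the data, also called 0 (303 below an unadjusted 0.05). For males against females, where 4 genes were called in all, 7 were called without a filter, 33 by DESeq2, 0 with genotype as a covariate and 0 to 7 without 1 library. None of the 35 genes was called in any of these.

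For the difference of the pairs, 386 genes were called in all and 2 of the cell cycle set. Without a filter 908 and 4 were called, the latter adding Melk (-4.74) and Nusap1 (-2.80). DESeq2 called 703 and 2, and the replicate block beside the difference 741 and 2. Limma-voom called 1 of the set, and so did genotype as a covariate, Mki67 in both. Without 1 library, 40 to 347 genes and 0 to 2 of the set were called, and the causes were not tested.

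Leaving out 1 library turned signs of values that were not called. In TG against WT, the log2 fold change of Mki67 ran from -1.13 to 0.67 (0.23 without TG 1), that of Top2a from -0.96 to 1.06 (0.15 without TG 1), that of Cdk1 from -1.06 to 0.022 and that of Cenpf from -0.12 to 1.39. In males against females, Mki67 ran from -0.88 to 0.93 (-0.27 without WT 2), Top2a from -0.47 to 1.44 (-0.043 without WT 2), Cdk1 from -0.35 to 0.96 and Anln from -0.027 to 0.89. In the difference of the pairs Cenpf ran from -0.20 to 2.78, whereas Mki67 kept a range of -3.25 to -2.55 and Top2a one of -3.55 to -2.48. A fit without 1 library assumes that a lone sample varies like the others. On unscaled totals the ratio of Cenpf was 2.18 in the males and 1.13 in the females. Depth limits the genes with under 10 counts in a library, such as Melk, Birc5 and the 3 untested ones.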

Other observations

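Cdkn1a encodes p21, an inhibitor of cyclin-dependent kinases, and was chosen after its values were seen. It was at 9.12, 25.3, 8.61 and 30.7 CPM in WT 1, WT 2, TG 1 and TG 2, from 150, 395, 121 and 462 counts. Both 19-week females were thus above both 35-week males, with no overlap, an order that 15.9% of all tested genes had. The log2 ratio of males over females was -1.66 ± 0.16 (SE), with an unadjusted p of 0.000226 and an edgeR adjusted p of 0.340, so it failed the correction. DESeq2 gave an adjusted p of 1.86e-06, and over the other alternatives the adjusted p ran from 0.126 to 1.00. Between TG and WT, Cdkn1a had a log2 fold change of 0.19 ± 0.74 (SE; adjusted p 1.00 by edgeR).

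The G1 cyclin Ccnd2 had a difference of the pairs of 1.53 ± 0.32 (SE; adjusted p 0.0767 by edgeR), in the direction opposite to Mki67. It was called by DESeq2 (adjusted p 0.00271), by edgeR without a filter (0.00926) and by edgeR with the replicate block beside the difference (0.0220). The same block gave calls of opposite sign to Anapc2, a core subunit of the anaphase promoting complex, and Cep55, a protein of cytokinesis. Anapc2 was at 306, 594, 397 and 348 counts, a difference of 1.32 (adjusted p 0.0403 by edgeR), and Cep55 at 41, 3, 8 and 14 counts, a difference of -4.30 (adjusted p 0.0466 by edgeR). The mitotic kinesin Kif15, at 38, 8, 8 and 23 counts, was called without a filter, with a difference of -3.65 (adjusted p 0.0356 by edgeR).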
